A study of Mus musculus with 10 samples.

Results

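The genes described here are 36 members of the response to endoplasmic reticulum (ER) stress and amino acid shortage. They were chosen as a list of gene names, with earlier results of these data known. They comprise 18 genes of the ATF4 branch (Atf4 itself and its targets) and 18 ER chaperones, cofactors and genes of ER-associated degradation, out of 18194 genes measured. All 36 had a probe set with a single gene symbol, and no filter on low values was used, so every member entered the test. RNA came from the secondary palate of C57B6 mouse embryos at E14.5, during palatal fusion, with 1 Affymetrix array for each sample. The mutant group (5 arrays) had the genotype Tgfbr2fl/fl;Wnt1-Cre, in which Tgfbr2, a TGF-beta receptor gene, is deleted where Wnt1-Cre has been active. The control group (5 arrays) had the genotype Tgfbr2fl/fl with no Cre listed, and its titles call it wildtype. The earlier stage named in the series design was not analysed here. Both groups thus carry the floxed alleles, and by the labels the Cre is present in the mutants alone. Wnt1-Cre acts in the neural crest lineage, which gives rise to the palatal mesenchyme, so epithelium, endothelium and blood cells in the samples retain an intact Tgfbr2. The question of the series is which palatal genes TGF-beta signalling regulates.

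Secreted and membrane proteins fold in the ER with the help of Hsp70 and Hsp90 chaperones, disulfide isomerases and lectins. When unfolded proteins accumulate, the sensors IRE1, ATF6 and PERK raise the synthesis of these helpers through the transcription factors XBP1 and ATF6, and PERK slows translation by phosphorylating eIF2alpha. Phosphorylated eIF2alpha favours translation of ATF4, which also responds to lack of amino acids through the kinase GCN2 and induces genes for amino acid synthesis, uptake and tRNA charging. Palatal mesenchyme secretes large amounts of collagen, which is itself folded in the ER.

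The letters that these transcription factors recognise stand before the start of many members, and are shown here because they define the branches of the response. RefSeq promoters (build GRCm38.p6) were given for 33 of the 36 members; Hyou1, Manf and Slc7a5 had no entry. The ER stress element, read by ATF6 and XBP1 together with NF-Y, was searched on both strands as CCAAT, 9 bases of any kind, and CCACG in the 250 bases before each start. It stood before 7 of 16 ER members (43.75%), 0 of 17 ATF4 members and 35 of 27025 genes in the whole table (0.13%). The matches are given 5′ to 3′ on the strand that carries them, with the fixed parts of the motif in capitals.
Hspa5, chr2:34772025-34772043, + strand: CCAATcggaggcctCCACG
Hsp90b1, chr10:86705533-86705551, + strand: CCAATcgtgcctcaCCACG
Hsp90b1, chr10:86705638-86705656, - strand: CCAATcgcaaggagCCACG
Dnajc3, chr14:118937827-118937845, + strand: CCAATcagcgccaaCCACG
Pdia6, chr12:17266491-17266509, + strand: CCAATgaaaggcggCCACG
Creld2, chr15:88819520-88819538, - strand: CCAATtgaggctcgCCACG
Calr, chr8:84847075-84847093, + strand: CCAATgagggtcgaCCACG
Canx, chr11:50325800-50325818, - strand: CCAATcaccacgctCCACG

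The composite C/EBP-ATF site, read by ATF4 paired with a C/EBP factor, was searched on both strands as TGATGNAA in the same window. It stood before 6 of 17 ATF4 members (35.294%), 1 of 16 ER members (6.25%, Herpud1) and 1056 of 27025 genes (3.907%). No member held both motifs, so none of the matches overlapped a match of the other kind. Each site is given with 6 bases on either side and the motif in capitals.
Asns, chr6:7693219-7693238, - strand: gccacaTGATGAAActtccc
Atf3, chr1:191183430-191183449, + strand: acttggTGATGCAAgtgcga
Chac1, chr2:119351043-119351062, - strand: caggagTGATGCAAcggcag
Nupr1, chr7:126625567-126625586, + strand: cctgtcTGATGCAAtctggc
Slc7a11, chr3:50443666-50443685, - strand: tgtggcTGATGCAAacctgg
Slc7a11, chr3:50443647-50443666, + strand: gcatgaTGATGCAAattctc
Vldlr, chr19:27216814-27216833, - strand: gagcgcTGATGCAActattg
Herpud1, chr8:94386311-94386330, - strand: gcgggcTGATGCAAcccgcc

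Another motif, TGACGTGG, was found before 0 of 16 ER members and 0 of 17 ATF4 members, against 163 of 27025 genes (0.603%). A match is a run of letters and not evidence of binding, and its absence speaks only of this window. In the expression data described next, 1 of the 7 members with an ER stress element was called lower (Creld2), and so was 1 of the 7 with a C/EBP-ATF site (Asns). The share called lower was 19.4% over all 36 members and 5.36% over all genes, so these counts set neither motif apart.

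**Figure D1:**
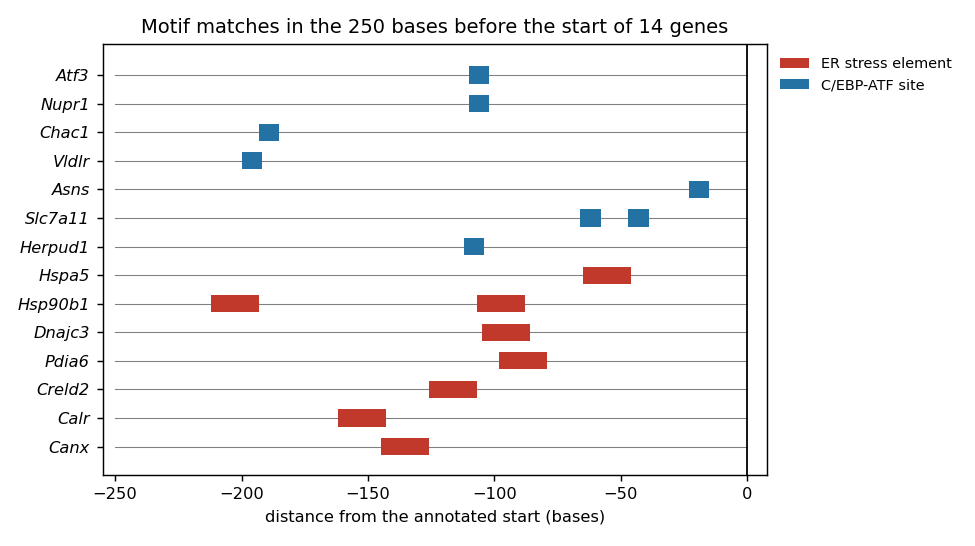
Positions of the motif matches, with distance from the annotated start in bases on the horizontal axis and 1 line for each of the 14 members with a match. The ER stress elements (red) end between 194 and 47 bases before the start, and the C/EBP-ATF sites (blue) range from Vldlr, 200 bases away, to Asns, 23 bases away.

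Of the 36 members, 7 fell in the mutant palate and 0 rose, by limma at an adjusted p under 0.05 over all genes, and 29 were not called. The 7 were 4 ATF4 targets (Mthfd2, Asns, Phgdh and Psat1, all enzymes of amino acid and one-carbon synthesis) and 3 ER cofactors (Sdf2l1, Creld2 and Dnajb11). Their decreases were 1.16-fold to 1.47-fold. At an unadjusted p under 0.05, 11 members (30.6%) were lower and 1 (2.8%), Sel1l, was higher, against 15.1% and 10% of all genes. The unadjusted counts given for other lists below are to be read against these last 2 shares. Over all genes 8.26% were called, 5.36% lower and 2.9% higher. The called share of the members (19.4% lower) was above the background of lower genes. The members and the lists below were chosen with earlier results of these data known, so this difference is not independent evidence of enrichment. The median log2 change was -0.10 for the ATF4 group, -0.05 for the ER group and 0.0 for all genes. This background depended on brightness. Among the brighter 60% of genes the median was -0.04, and 74.7% of called genes were lower, against 64.9% in the fit over all genes. That set held all 18 ER members (median -0.05) and 14 ATF4 members (-0.10). The ER median was thus near that of genes of like brightness. All 5 mutant arrays lay below all 5 control arrays for 5 members (Mthfd2, Asns, Sdf2l1, Creld2 and Dnajb11), which holds for 4.93% of all genes, and above them for 0 members, against 1.82% of all genes.

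How arrays were scaled moved this picture. When each array was centred on its median, the share of lower genes among all called genes went from 64.9% to 27.0%, and after another quantile normalization it was 54.0%. The median over genes was 7.4 on every mutant array and 1 control array, and 7.5 on the other control arrays. Centring thus added the same constant to every log2 change, as for Mthfd2 (-0.56 to -0.48) and Hspa5 (-0.02 to 0.06). These medians differ by the smallest step of the deposited values, so a real difference in scale cannot be told from rounding. Sign turns and lost calls after centring, here and below, are to be read with this limit. Centring shifted the median of all genes to 0.08 and left 1 ATF4 member (Mthfd2) and 1 ER member (Sdf2l1) called lower. It also turned the median of the ER group to 0.03, while that of the ATF4 group stayed below 0, at -0.02. No member was called higher under either scaling.

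**Figure D2:**
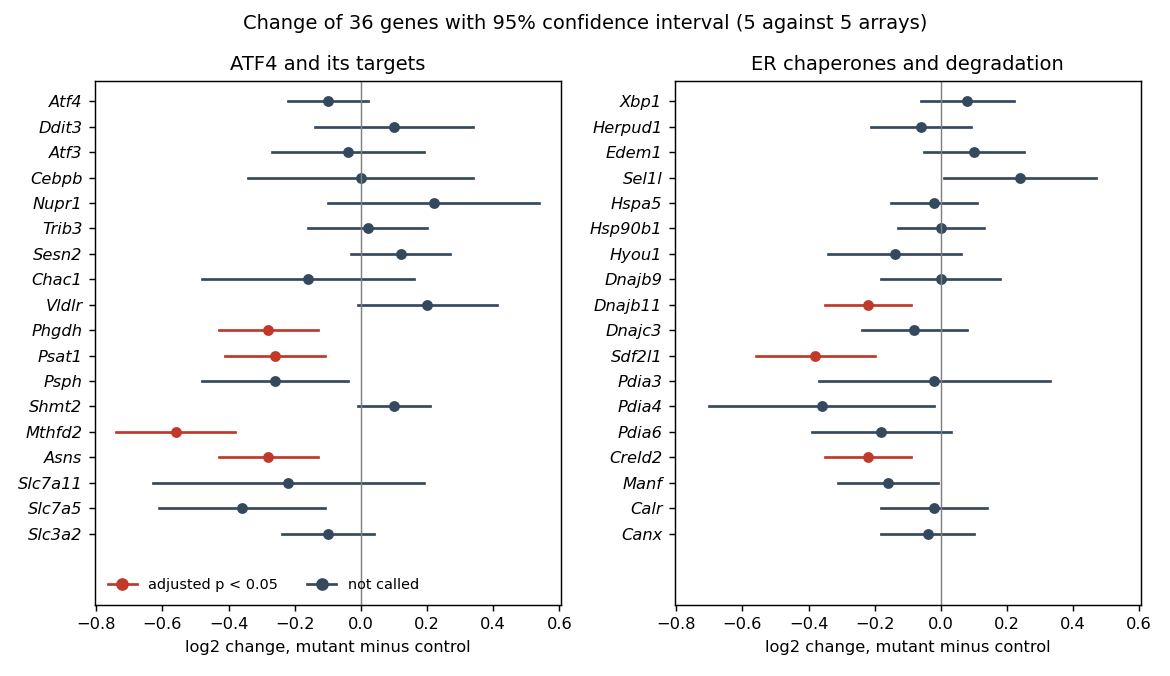
Log2 change (mutant minus control) of each member on the horizontal axis, with its 95% confidence interval as a line, for ATF4 and its targets (left) and ER genes (right); red marks an adjusted p under 0.05. Mthfd2 at -0.56 lies furthest from 0 among the 36, and the intervals of the other called members end closer to 0.

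Several facts about the arrays bear on all values. The deposited values have 1 decimal, so a step of 0.1 is the smallest difference that can be seen, and having 5 arrays in a group limits the precision. The samples are numbered, but nothing says that they are different embryos. The p-values therefore rest on the spread between arrays, which may be technical. Control replicate 1 correlated less with the other 9 arrays (0.985 to 0.989 over genes) than they did with each other (0.989 to 0.996), and it was the sole highest array for 8 of the 36 members and the sole lowest for 5. These counts are near its shares over all genes, 23.1% and 13.6%. Tgfbr2 itself was 10.74 ± 0.05 in mutant and 10.66 ± 0.11 in control arrays (SD, n = 5 each), but where its probes lie relative to the deletion is not stated, so this does not check the genotype. The 9 palate mesenchyme markers ranged from 7.9 (Msx1) to 14.0 (Col3a1), and Msx1 had the largest change (-0.84, adjusted p = 0.147). Of these markers 0 were called by limma, with 1 lower and 2 higher at an unadjusted p under 0.05. Skeletal muscle markers fell: 5 of 8 were called lower, with a median log2 change of -1.44 and array medians of -1.44 to 0.50 around each gene's mean in mutants and 0.44 to 1.44 in controls. No muscle marker was at 0, as the array always returns a value, and the lowest value was 3.1. Of 9 epithelial markers 0 were called, with 1 lower and 3 higher at an unadjusted p under 0.05. The part that muscle content or control replicate 1 has in the results below was not tested, except where values without that array are given. In bulk tissue, fewer cells of a type and less RNA per cell cannot be told apart.

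The enzymes that make serine, glycine, folate-bound one-carbon units and asparagine held 4 of the 7 called members. Of 6 such genes these 4 were lower and 0 higher, with a median log2 change of -0.27, and 5 of 6 changes were negative. Over all genes 5.36% were called lower and 2.9% higher, and 8850 of 18194 changes were negative. Called counts of this and the other roles are to be read against these shares. The split of the members by role serves to order the text and was not tested. Around each gene's own mean, the median over the 6 enzymes was -0.16 to -0.11 on the mutant arrays and 0.05 to 0.32 on the control arrays, with control replicate 1 the highest. The median stayed below 0 when arrays were centred (-0.19) or quantile normalized again (-0.23), where 1 and 2 of the 6 were called. The 3 amino acid carriers had a median of -0.22, and of -0.25 after quantile normalization, so the order of these roles depends on the scaling.

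Mthfd2, the mitochondrial dehydrogenase and cyclohydrolase of the folate pathway, changed most. Its log2 values were 8.3, 8.6, 8.4, 8.4 and 8.6 in mutant replicates 1 to 5 and 9.1, 9.0, 8.9, 9.2 and 8.9 in control replicates 1 to 5. The groups did not overlap, and the gap between the highest mutant and the lowest control array was 3 of the smallest steps. The means were 8.46 ± 0.13 and 9.02 ± 0.13 (SD, n = 5 each), a log2 change of -0.56 (SE 0.08, 95% confidence interval -0.74 to -0.38) or 1.47-fold lower, with a limma adjusted p of 0.00309. Its other probe set read 8.1 to 8.3 in mutants and 8.4 to 8.5 in controls, again without overlap (-0.30). In a fit over all 34958 probe sets, where 3.41% were called lower and 1.5% higher, both Mthfd2 probe sets were called (adjusted p = 0.00548 and 0.0212). Mthfd2 was the one member called in all 18 alternative fits, each left-out array included. Its upstream sequence is shown because it changed most and held none of the 3 motifs; the 150 bases before its start, in transcript direction, lie at chr6:83317605-83317754 (- strand).
Mthfd2: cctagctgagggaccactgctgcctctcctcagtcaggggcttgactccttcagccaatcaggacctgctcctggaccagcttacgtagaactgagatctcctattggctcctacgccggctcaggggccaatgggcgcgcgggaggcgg

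Asns, which makes asparagine from aspartate and glutamine and is a textbook ATF4 target, read 9.2, 9.3, 9.3, 9.2 and 9.1 in mutants and 9.7, 9.4, 9.4, 9.5 and 9.5 in controls. The groups were separated by a single step, from 9.3 to 9.4. The log2 change was -0.28 (SE 0.07, interval -0.43 to -0.13; adjusted p = 0.0346), or 1.21-fold lower. The second Asns probe set changed by -0.40 and was not called in the probe set fit (adjusted p = 0.0688). The call was lost without any 1 of the 5 mutant replicates, or without control replicate 4 or 5 (adjusted p = 0.0509 to 0.0783). The 150 bases before the Asns start (chr6:7693210-7693359, - strand, transcript direction) show the C/EBP-ATF match in capitals near the right end.
Asns: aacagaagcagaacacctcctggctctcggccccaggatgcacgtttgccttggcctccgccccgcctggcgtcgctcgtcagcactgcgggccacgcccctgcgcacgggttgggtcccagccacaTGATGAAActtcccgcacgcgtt

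The serine pathway runs from Phgdh through Psat1 to Psph. Phgdh, its first enzyme, read 10.6, 10.5, 10.5, 10.5 and 10.7 in mutants and 11.0, 10.8, 10.7, 10.9 and 10.8 in controls. The groups met at 10.7, in mutant replicate 5 and control replicate 3. Phgdh changed by -0.28 on the log2 scale (SE 0.07; adjusted p = 0.0325), a 1.21-fold decrease. All 4 Phgdh probe sets are of a type (_x_at) whose probes may also match other transcripts, and they gave -0.28, -0.24, -0.20 and 0.24, the last with an SE of 1.28. Averaged over probe sets, Phgdh changed by -0.12 and was not called (adjusted p = 0.879). The call was also lost without mutant replicate 1, 2, 3 or 4 or control replicate 4 or 5 (adjusted p = 0.054 to 0.0796).

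Psat1, the aminotransferase of the second step, read 10.2, 10.2, 10.2, 10.4 and 10.3 in mutants and 10.5, 10.7, 10.5, 10.4 and 10.5 in controls. The groups met at 10.4, in replicate 4 of each. On the log2 scale the difference was -0.26 (SE 0.07, adjusted p = 0.0395), a 1.2-fold decrease. In the fit over all probe sets neither Psat1 probe set was called. There the adjusted p was 0.0579 for this probe set and 0.44 for the other, which changed by -0.14. Without mutant replicate 1, 2, 3 or 5 or control replicate 2, 3 or 5 the gene was not called (adjusted p = 0.0677 to 0.0932).

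Psph, the phosphatase that releases serine, was not called, although its mean differed as much as that of Psat1. All 5 mutant arrays read 7.7, and the controls read 8.3, 8.1, 7.9, 7.7 and 7.8. Control replicate 4 matched the mutants, and control replicate 1 was the highest. The log2 change was -0.26 (interval -0.48 to -0.04; adjusted p = 0.129), and -0.18 without control replicate 1. Shmt2, the mitochondrial enzyme that splits serine into glycine and a one-carbon unit just before the Mthfd2 step, went against the other 5, at 9.80 ± 0.07 in mutants and 9.7 on every control array (0.10, interval -0.01 to 0.21; adjusted p = 0.264).

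**Figure D3:**
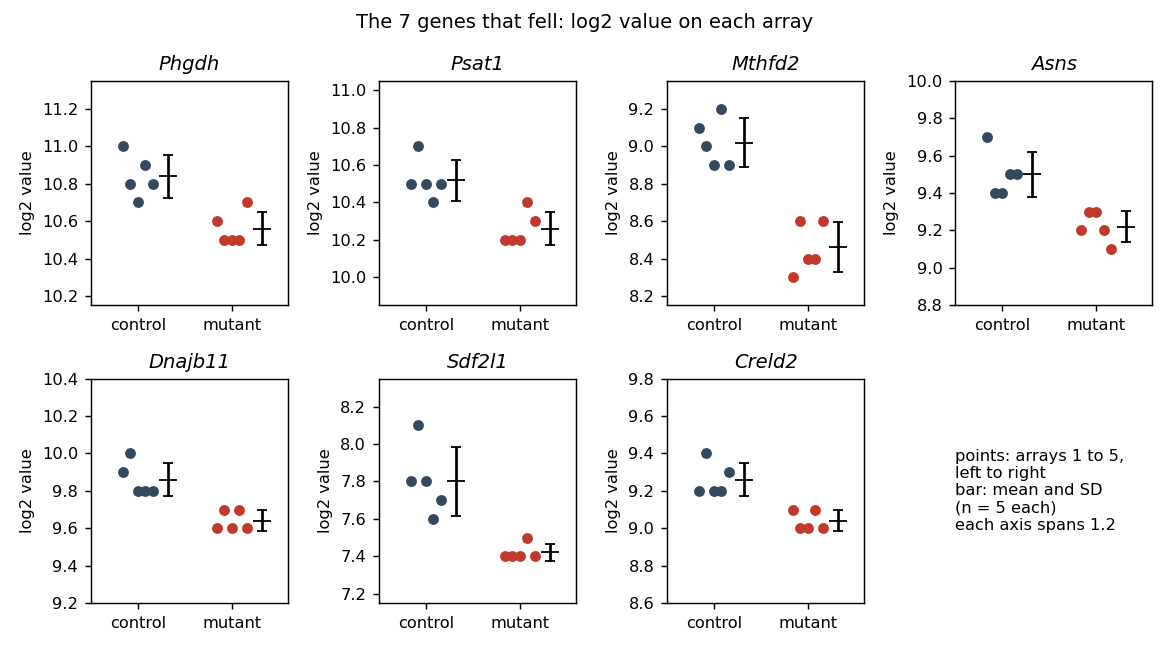
Log2 value on each array for the 7 called members, with control arrays (dark) and mutant arrays (red) 1 to 5 from left to right and the mean and SD (n = 5 each) as bars; each vertical axis spans 1.2 log2 units. Mthfd2 shows the widest gap between groups, while the points of Phgdh and Psat1 meet at 10.7 and 10.4.

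The 3 amino acid carriers all had negative changes, and 0 were called by limma, with 1 lower (Slc7a5) at an unadjusted p under 0.05. Slc7a5, the light chain of the large neutral amino acid carrier, read 8.1, 7.7, 7.6, 7.8 and 8.0 in mutants and 8.5, 8.0, 8.1, 8.3 and 8.1 in controls. The groups overlapped from 8.0 to 8.1. The log2 change was -0.36 (interval -0.61 to -0.11; adjusted p = 0.0774), and -0.28 without control replicate 1 (adjusted p = 0.112). Slc3a2, the heavy chain shared by these carriers, changed by -0.10 (10.26 ± 0.05 against 10.36 ± 0.11; adjusted p = 0.366). Slc7a11, the cystine carrier, lay near the bottom of the scale in every array but control replicate 1, which read 5.1 against 3.9 to 4.3 elsewhere. Its log2 change of -0.22 (adjusted p = 0.507) became -0.02 without that array, and its other probe set changed by 0.10.

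The remaining ATF4 members, mostly transcription factors and regulators of stress, were not lower as a group. Among them Chac1 and Vldlr are of other kinds. Of these 9 genes 0 were called by limma, and 0 had an unadjusted p under 0.05 in either direction. Their median log2 change was 0.02. Atf4, the factor that gives the branch its name, read 10.8, 10.7, 10.7, 10.8 and 10.7 in mutants and 10.8, 10.9, 10.8, 10.9 and 10.8 in controls. Both groups held arrays at 10.8, and the log2 change was -0.10 (interval -0.22 to 0.02; adjusted p = 0.274). The other Atf4 probe sets changed by 0.12 and -0.04. Averaged over its 3 probe sets Atf4 changed by -0.01 and was not called by limma (adjusted p = 0.961). ATF4 is controlled largely by translation, which an array of transcripts does not measure.

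Ddit3 (CHOP), a transcription factor of prolonged ER stress, changed by 0.10 (interval -0.14 to 0.34; adjusted p = 0.605), with mutants at 7.8 to 8.2 and controls at 7.5 to 8.0, and by 0.01 without control replicate 1. The second Ddit3 probe set was higher by 0.38 and was not called (adjusted p = 0.0624). Trib3, a pseudokinase induced with CHOP, changed by 0.02 (interval -0.16 to 0.20; adjusted p = 0.898). Chac1, which degrades glutathione, changed by -0.16 (adjusted p = 0.528), with control replicates 2 and 4 at 6.7 and 6.5 and the other 8 arrays at 5.9 to 6.2.

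Atf3, an early stress factor, changed by -0.04 (adjusted p = 0.859) and stayed between 6.0 and 6.4 in both groups. Cebpb, the C/EBP partner of ATF4, had equal means of 8.70 (interval of the change -0.34 to 0.34). The control arrays of Cebpb ran from 8.3 to 9.3, with control replicate 1 the highest, so this interval is wide, and without that array the change was 0.15 (adjusted p = 0.366). Nupr1, a small chromatin protein of the stress response, changed by 0.22 (interval -0.10 to 0.54; adjusted p = 0.382), and Sesn2, a leucine sensor that restrains mTORC1, by 0.12 (adjusted p = 0.312), its other probe set giving -0.12.

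Vldlr, a lipoprotein receptor that PERK and ATF4 induce, was the one member with a probe set called higher. The probe set with the highest mean read 10, 9.7, 10, 10 and 9.9 in mutants and 9.4, 9.7, 9.8, 9.9 and 9.8 in controls. The groups overlapped between 9.7 and 9.9, and the change was 0.20 (interval -0.01 to 0.41; adjusted p = 0.226), or 0.12 without control replicate 1. Of 6 Vldlr probe sets 5 were positive, and 1 was called in the probe set fit, at 8.0 to 8.1 in mutants and 7.6 to 7.9 in controls (0.28, adjusted p = 0.0372). Over all 83 probe sets of the members, 5 were called lower and this 1 higher.

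The abundant chaperones of the ER differed little. Hspa5 (BiP), the Hsp70 that also holds the stress sensors inactive, read 13.0, 12.9, 13.1, 13.0 and 13.0 in mutants and 12.9, 13.1, 13.1, 13.0 and 13.0 in controls. The 2 groups covered the same range. Its log2 change was -0.02 (interval -0.15 to 0.11; adjusted p = 0.875), so the interval lies inside a 1.25-fold change either way. Hsp90b1 (GRP94), the ER Hsp90, had equal means of 12.26 (interval -0.13 to 0.13). Hyou1, a large Hsp70 relative that exchanges nucleotide on Hspa5, changed by -0.14 (adjusted p = 0.382), with control replicates 1 and 2 at 10.6 and 10.4 and the other arrays at 10.1 to 10.2. Without control replicate 1 it changed by -0.06. By limma 0 of these 3 were called, and 0 had an unadjusted p under 0.05. Their median of -0.02 turned to 0.06 when arrays were centred.

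The promoter of Hspa5 is printed as the standard example of a gene with the ER stress element, beside that of Creld2, the called member with the same element. Each line holds the 150 bases before the start in transcript direction, Hspa5 at chr2:34771940-34772089 and Creld2 at chr15:88819496-88819645 (both + strand). The fixed parts of the element are in capitals, and in Creld2 they read as CGTGG and ATTGG because the match is on the other strand.
Hspa5: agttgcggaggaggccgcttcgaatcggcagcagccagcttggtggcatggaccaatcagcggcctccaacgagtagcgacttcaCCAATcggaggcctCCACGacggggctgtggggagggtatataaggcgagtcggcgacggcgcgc
Creld2: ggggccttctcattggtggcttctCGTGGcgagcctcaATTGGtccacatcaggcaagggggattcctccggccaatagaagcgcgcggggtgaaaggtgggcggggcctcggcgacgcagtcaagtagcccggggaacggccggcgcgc

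The J proteins, which hand clients to Hspa5, and their partner Sdf2l1 held 2 of the 3 called ER members. Sdf2l1, which binds Dnajb11 and keeps its clients soluble, read 7.4, 7.4, 7.4, 7.5 and 7.4 in mutants and 7.8, 8.1, 7.8, 7.6 and 7.7 in controls. The groups did not overlap, and the controls were spread over 5 steps where the mutants covered 1. The log2 change was -0.38 (SE 0.08, interval -0.56 to -0.20; adjusted p = 0.0203), or 1.3-fold lower. The call was lost without mutant replicate 3 (adjusted p = 0.0509), and held in 15 of 18 alternative fits.

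Dnajb11 read 9.6, 9.7, 9.6, 9.7 and 9.6 in mutants and 9.9, 10, 9.8, 9.8 and 9.8 in controls. The groups were 1 step apart. Dnajb11 thus changed by -0.22 on the log2 scale (SE 0.06; adjusted p = 0.0421), 1.16-fold lower, and leaving out any 1 of the 10 arrays put it past the threshold (adjusted p = 0.0501 to 0.0959). Dnajb9, which recruits Hspa5 to the sensor IRE1, had equal means of 9.58 (interval -0.18 to 0.18). Dnajc3, a cochaperone that also restrains eIF2alpha kinases, changed by -0.08 (adjusted p = 0.545), and its 5 probe sets were all negative, with 0 called by limma.

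The disulfide isomerases and secreted ER proteins had 5 negative changes of 5 and 1 call. When arrays were centred 4 of 5 were negative and 0 were called. After another quantile normalization 5 were negative and 0 called, and without control replicate 1 the counts were 4 and 1. The weaker probe sets of Pdia4 and Pdia6 changed by 0.10 and 0.02. Creld2, a secreted ER protein with isomerase activity, read 9.1, 9.0, 9.0, 9.1 and 9.0 in mutants and 9.2, 9.4, 9.2, 9.2 and 9.3 in controls. The groups were 1 step apart, and the log2 change of -0.22 (SE 0.06; adjusted p = 0.0421) equalled that of Dnajb11. It kept the call without control replicate 1 (adjusted p = 0.0317) and lost it without each of the other 9 arrays (0.0573 to 0.0959). In the fit over all probe sets Creld2 and Dnajb11 were not called (adjusted p = 0.0628 for both).

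Pdia4, an isomerase of the ER, read 8.1, 8.0, 8.0, 7.9 and 7.9 in mutants and 9.0, 8.3, 8.3, 8.1 and 8.0 in controls. Control replicate 1 was far above the rest, and the change of -0.36 (interval -0.70 to -0.02; adjusted p = 0.171) became -0.20 without it. Pdia6, an isomerase that limits IRE1 and PERK signalling, changed by -0.18 (adjusted p = 0.277), and by -0.26 without control replicate 1, which was the lowest control (adjusted p = 0.0541). Manf, a secreted factor that binds Hspa5, changed by -0.16 (interval -0.31 to -0.01; adjusted p = 0.162). Pdia3 (ERp57), the isomerase that works with the lectin chaperones, changed by -0.02, with values of 11.5 to 12.3 in both genotypes together and an interval of -0.37 to 0.33.

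The lectin chaperones Calr and Canx, which hold newly made glycoproteins, changed by -0.02 (interval -0.18 to 0.14) and -0.04 (-0.18 to 0.10). Calr was 12.7 on every control array and 12.5 to 12.8 on the mutant arrays. The weakest of 3 Canx probe sets, at 8.0 to 8.2 in mutants and 8.3 to 8.6 in controls, changed by -0.26 and was not called (adjusted p = 0.068). Neither gene was called by limma or had an unadjusted p under 0.05, and their median of -0.03 turned to 0.05 when arrays were centred.

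Xbp1, the transcription factor downstream of IRE1, and the 3 members of ER-associated degradation were not lower. Of these 4 genes 0 were called by limma, 1 (Sel1l) was higher at an unadjusted p under 0.05, and the median log2 change was 0.09. Sel1l, the adaptor of the Hrd1 ubiquitin ligase that passes misfolded proteins out of the ER, read 10.4, 10.6, 10.4, 10.2 and 10.4 in mutants and 9.8, 10.4, 10.2, 10.2 and 10.2 in controls. The groups overlapped between 10.2 and 10.4, with control replicate 1 the lowest array. The change was 0.24 (interval 0.01 to 0.47; adjusted p = 0.186), and 0.15 without that array, and all 5 Sel1l probe sets were positive, by 0.10 to 0.24.

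Xbp1 changed by 0.08 (interval -0.06 to 0.22; adjusted p = 0.486). Herpud1, a membrane protein of the same ligase complex, changed by -0.06 (adjusted p = 0.62), and Edem1, which picks out misfolded glycoproteins, by 0.10 (adjusted p = 0.392).

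A member that was not called is not shown to be level. For 16 of the 29 uncalled members the 95% interval lay inside a 1.25-fold change in either direction, 10 of 15 in the ER group and 6 of 14 in the ATF4 group. For the other uncalled members, larger changes remained within the interval. Across arrays, the median over the ATF4 group ran from -0.10 to -0.02 in mutants and from -0.02 to 0.09 in controls, around each gene's mean. For the ER group these ranges were -0.12 to -0.01 and -0.01 to 0.08, so in both groups of members the genotypes met at their edges.

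**Figure D4:**
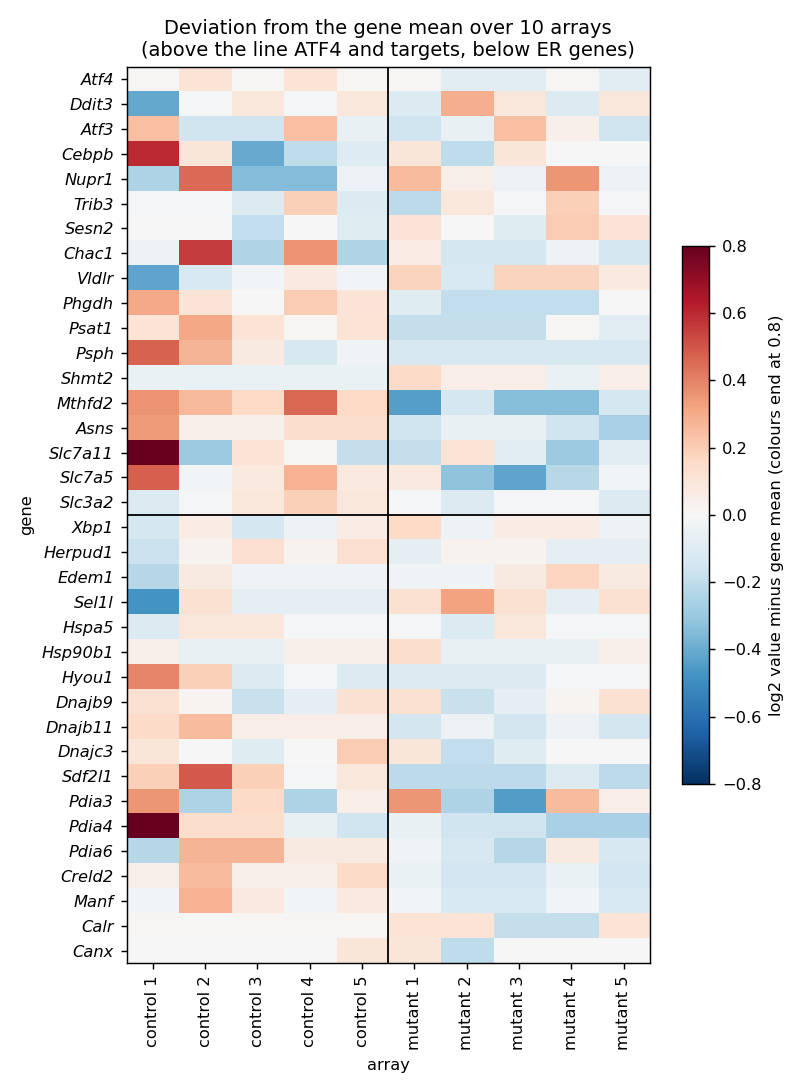
Colour map of each member (rows, ATF4 group above the line and ER group below) on each array (columns), showing the log2 value minus the gene's mean over the 10 arrays; colours end at 0.8. Control replicate 1 holds many of the strongest colours in both directions, being the sole highest array for 8 of 36 genes and the sole lowest for 5, near its 23.1% and 13.6% of all genes, and Mthfd2 is blue on all 5 mutant arrays.

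Genes around the members were read from 6 further lists. Of their 117 measured genes, 8 (6.84%) were called lower and 2 (1.71%) higher, near the 5.36% and 2.9% of all genes. Called counts of the lists below are to be read against these last 2 shares. The median log2 change over the 117 genes was -0.06 and turned to 0.02 when arrays were centred. The aminoacyl-tRNA synthetases, many of them ATF4 targets, had negative changes in 18 of 19 genes, with 3 called lower, 0 higher and a median of -0.14. When arrays were centred the median was -0.06, with 14 of 19 negative and 2 called lower. At an unadjusted p under 0.05, 9 were lower and 0 higher. Around each gene's mean the median over the synthetases was -0.11 to -0.03 on mutant arrays and 0.06 to 0.12 on control arrays. Tars, the threonine enzyme, read 9.5 on 4 mutant arrays and 9.6 on the other, against 9.8 to 10 in controls. It fell by 0.36 on the log2 scale (SE 0.06; adjusted p = 0.00484). Rars, the arginine enzyme, read 10.4 to 10.5 against 10.6 to 10.8 and fell by 0.28 (adjusted p = 0.0168). Tars and Rars were called without each array in turn, while Kars, the lysine enzyme (-0.22, adjusted p = 0.0273), lost its call in 6 of the 10 such fits (0.0532 to 0.0653).

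Other amino acid and folate genes had 3 of 22 called lower, 0 higher and the same median of -0.14. Centred, the median was -0.06, with 1 called lower and 1 higher. At an unadjusted p under 0.05, 9 of the 22 were lower and 3 higher. Gldc, the glycine decarboxylase of the glycine cleavage system, read 4.5 to 4.8 in mutants and 4.9 to 5.3 in controls, a change of -0.42 (adjusted p = 0.0134) that held without each array. Mthfd1, the cytosolic counterpart of Mthfd2, changed by -0.36 (adjusted p = 0.028, lost in 5 of the 10 fits that leave out an array, 0.054 to 0.0676). Got1, the cytosolic aspartate aminotransferase, changed by -0.22 (adjusted p = 0.0457, lost in 8 of them, 0.0743 to 0.108).

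Further from amino acids, few genes were called. Of 16 stress sensors and genes of eIF2alpha control 0 were lower and 1 higher by limma, with 2 lower and 2 higher at an unadjusted p under 0.05. The gene was Ern1, which encodes IRE1, at 8.1 to 8.3 in mutants and 7.9 to 8.0 in controls. It changed by 0.26 (SE 0.06, adjusted p = 0.0201, and 0.0509 without mutant replicate 3). Averaged over its 5 probe sets Ern1 changed by 0.18 and was not called (adjusted p = 0.0923). The call was also lost with the replicate number (0.0722) or Eif2s3y (0.0647) added to the fit, and held in all other alternative fits. Of 32 other ER folding, degradation and translocation genes 1 was lower, Derl2, a channel protein of ER-associated degradation (-0.34, adjusted p = 0.0346, lost in 7 of the 10 fits, 0.0544 to 0.0777).

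Collagen folding and export genes had 1 of 15 called in each direction and a median of 0.08. Without control replicate 1 the median was -0.01, with 8 of 15 negative, and with centred arrays it was 0.16, with 0 called lower and 3 higher (at an unadjusted p under 0.05 the uncentred fit gave 2 lower and 3 higher). P4ha2, a catalytic subunit of collagen prolyl hydroxylase, read 10.4 to 10.6 in mutants and 9.8 to 10.2 in controls (0.40, adjusted p = 0.0189). P4ha3, another such subunit, changed by -0.30 (adjusted p = 0.0425, lost in 9 of the 10 fits, 0.054 to 0.103). Of 13 cytosolic and mitochondrial heat shock genes 0 were called by limma, with 2 lower and 1 higher at an unadjusted p under 0.05. The smallest p there belonged to Hsp90aa1, the inducible cytosolic Hsp90 (0.18, adjusted p = 0.0803), which passed the threshold when arrays were centred (0.26, adjusted p = 0.0196). It also passed with a robust intensity trend (0.039), with array weights (0.0269) and without control replicate 1 (0.0315). In the other alternative fits it did not pass, the mean over its 5 probe sets among them (0.12, adjusted p = 0.253).

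**Figure D5:**
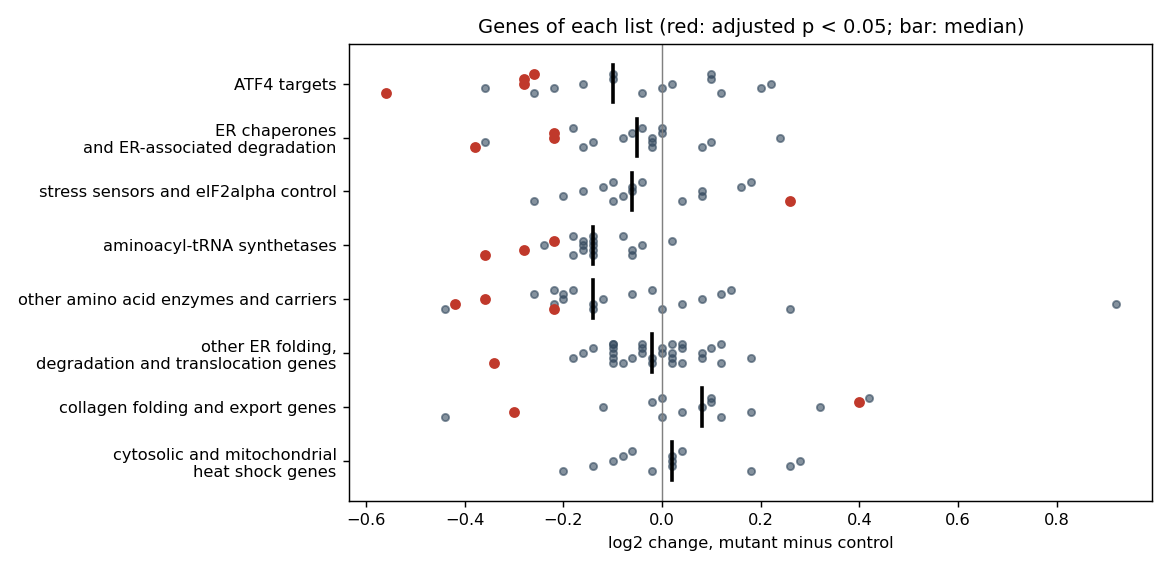
Log2 change (mutant minus control) of each measured gene in the 2 groups of members and the 6 further lists, with red points for an adjusted p under 0.05 and a bar at each median. The medians of the synthetases and the other amino acid genes lie at -0.14, and those of the heat shock and collagen folding genes at 0.02 and 0.08, which become 0.0 and -0.01 without control replicate 1.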

How the data were processed

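Total RNA of 10 secondary palate samples was hybridised to 1 Affymetrix mouse array each. The authors deposited log2 values from RMA, which the submitters' processing notes name without a version; a batch is not stated. Values ran from 2.2 to 14.3, with array medians of 6.4 to 6.5. Of 45101 probe sets, 34958 had 1 gene symbol, 932 several and 9211 none, and symbols were updated by Entrez ID (34754 found in a RefSeq table, GRCm38.p6). The brightest probe set by mean over the 10 arrays stood for each of 18194 genes. Mutant minus control was tested with limma 3.58.1 in R 4.3.3 (lmFit and eBayes, two-sided, without filter or covariate). P-values were adjusted by Benjamini-Hochberg over the 18194 genes, and a gene was called under 0.05. The fit was first tested on simulated data.

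The members and lists were chosen with earlier results of these data known. All members are described. From each further list the text names up to 3 called genes in order of p, and where there was no call the 1 gene that ranked first. Cldn5, Msx1 and Col3a1 lie outside this rule and were named after their values were seen. Of 222 genes written in the lists, 15 had no row of their own. Motifs were searched in Python 3.11.15. As alternatives, the fit was repeated with the mean over probe sets, with the brighter 60% of genes, with a robust intensity trend, after centring, after another quantile normalization, with array weights, with the replicate number as a block, with Eif2s3y as a covariate, and without each array. In the marker lists not described in the report, limma called 0 of 3 osteoblast, 0 of 4 cartilage, 0 of 8 macrophage, 0 of 4 erythroid and 0 of 3 neural genes and 1 of 6 endothelial genes (Cldn5, lower). At an unadjusted p under 0.05, the 5 lists without a call had 1, 0, 2, 1 and 0 genes.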

Additional observations from a re-analysis of the deposited data

Results flagged for a closer look

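In 9 of 94 groups tested (5 arrays of 1 genotype, 47 genes), 1 array lay far from the other 4 by Dixon's test at its critical value of 0.71. Chance gives about 1 in 20 groups, and in 6 of the 9 the gap was 0.1, the smallest step of the deposited values, with the other 4 arrays equal. Among the members these were Canx in control replicate 5 (12.0, high) and Sdf2l1 in mutant replicate 4 (7.5, high). Among the other named genes they were Ern1 in control replicate 4 (8.0), Tars in mutant replicate 4 (9.6), Kars in mutant replicate 2 (10.4) and Derl2 in mutant replicate 5 (9.2), all high. The other 3 gaps were larger and all in control replicate 1. Ddit3 read 7.5 there, 0.4 below the next control. Derl2 read 9.8, 0.4 above the next control, and P4ha2 read 9.8, 0.3 below the next.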

How the results depend on the processing

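The 1503 changed genes became 532 with the replicate block and ranged from 643 to 1798 when 1 array was left out. Of the 4 ATF4 members called lower, 2 were called with the mean of probe sets, 1 after centring, 2 after quantile normalization and 1 with the replicate block (1 to 4 leaving out an array). Of the 3 ER members, 1 was called after centring, 1 after quantile normalization and 0 with the block (0 to 2 leaving out an array). With Eif2s3y, a gene of the Y chromosome, as a covariate, 0 of the 3 were called by limma. The adjusted p was then 0.0754 for Sdf2l1, 0.133 for Creld2 and 0.0982 for Dnajb11. In the same fit 3 of the 4 ATF4 members were called, all but Psat1 (adjusted p = 0.139). Higher calls were 0 in both groups throughout these fits. The further lists' 8 lower calls became 3 after centring, 3 after quantile normalization, 13 with array weights, 3 with the block and 3 with Eif2s3y (3 to 11 leaving out an array). Their 2 higher calls became 1 with the mean of probe sets, 4 with the trend, 8 after centring, 6 with array weights and 0 with the block (1 to 6). No direction of a called gene reversed. Same-numbered arrays deviated together weakly or not at all (r = 0.029, 0.057, -0.053, -0.099 and 0.105), and no mutant array matched its own number best, so the numbers are not taken as pairs. With the block Mthfd2 was the one member still called. Steps of 0.1 and 5 arrays in a group limit how small a change can be called. Over the named genes called in the fit as reported, the call was lost in 76 of 170 values with an array left out and in 45 of 135 values under the other alternatives, with no change of sign. Uncalled named genes changed sign in 13 of 300 and 12 of 236 values.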

Other observations

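One Phgdh probe set, the one left with a wide error above, behaved unlike the other 3. It read 9.7, 7.4, 7.5, 6.6 and 9.8 in mutant replicates 1 to 5 and 10.3, 9.9, 4.5, 10.6 and 4.5 in control replicates 1 to 5, a range of 6.1 on the log2 scale that does not follow genotype. Of 34958 probe sets, 5 (this one included) had a range as wide. The probe set was singled out after its values were seen, and the cause was not tested.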
